A study of Mus musculus with 9 samples.

Results

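A set of 44 genes was near silent in wild type mouse hearts and expressed in every heart carrying a calcineurin transgene. The rule took genes below 1 FPKM (a count of sequenced fragments scaled to transcript length and sequencing depth) in all 4 wild type hearts and at 2 FPKM or more in all 5 transgenic hearts. It found 44 of 43154 listed genes, or 0.147% of the 29888 genes below 1 FPKM in all 4 wild type hearts. The rule used the contrast of transgenic with wild type hearts. That contrast is therefore given below for single genes of the set as a description, without a test. Counts over gene lists near the end do include genes of the set. "Switched on" holds in the sense of these thresholds only, since 0 of the 44 genes were listed at 0 in all 4 wild type hearts and 6 were at 0 in at least 1 of them.

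The hearts came from C57BL/6 mice. Transgenic mice (CnAtg) carried activated calcineurin A under the α-myosin heavy chain promoter, which is active in cardiomyocytes. Of the 5 transgenic mice, 2 were given JIB-04, an inhibitor of Jumonji histone demethylases, 3 times weekly at 50 mg/kg from the age of 4 weeks (JIB-04 heart 1 at day 125, JIB-04 heart 2 at day 158), and 3 were given vehicle (vehicle heart 1 at day 125, vehicle hearts 2 and 3 at day 158). The wild type group held 4 vehicle hearts (hearts 1 and 2 at day 125, hearts 3 and 4 at day 158). Wild type hearts given JIB-04 were not analysed here, so JIB-04 and day differences below are differences among transgenic hearts.

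Calcineurin is a calcium-activated phosphatase that removes phosphate from NFAT transcription factors, which then enter the nucleus and act with partners such as GATA4 and MEF2. Activated calcineurin in cardiomyocytes is known to cause massive hypertrophy, a return of fetal heart genes, fibrosis and heart failure.

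Of the 44 genes, 39 were protein coding, 3 were antisense RNAs, 1 was a long intergenic RNA and 1 was a processed pseudogene in GENCODE M21. They lay on 17 chromosomes with at most 5 on any 1 of them (chromosomes 2 and 15). Pairs within 1 Mb of each other included Krt80 and Krt18 at 658.1 kb on chromosome 15 and Pex5l and Gm9791 at 861.5 kb on chromosome 3. Mean levels over the 5 transgenic hearts ran from 2.37 to 46.8 FPKM, with a median of 4.8 FPKM. In 7 genes every transgenic heart was at 10 FPKM or more, and in 12 every transgenic heart was below 5 FPKM.

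**Figure D1:**
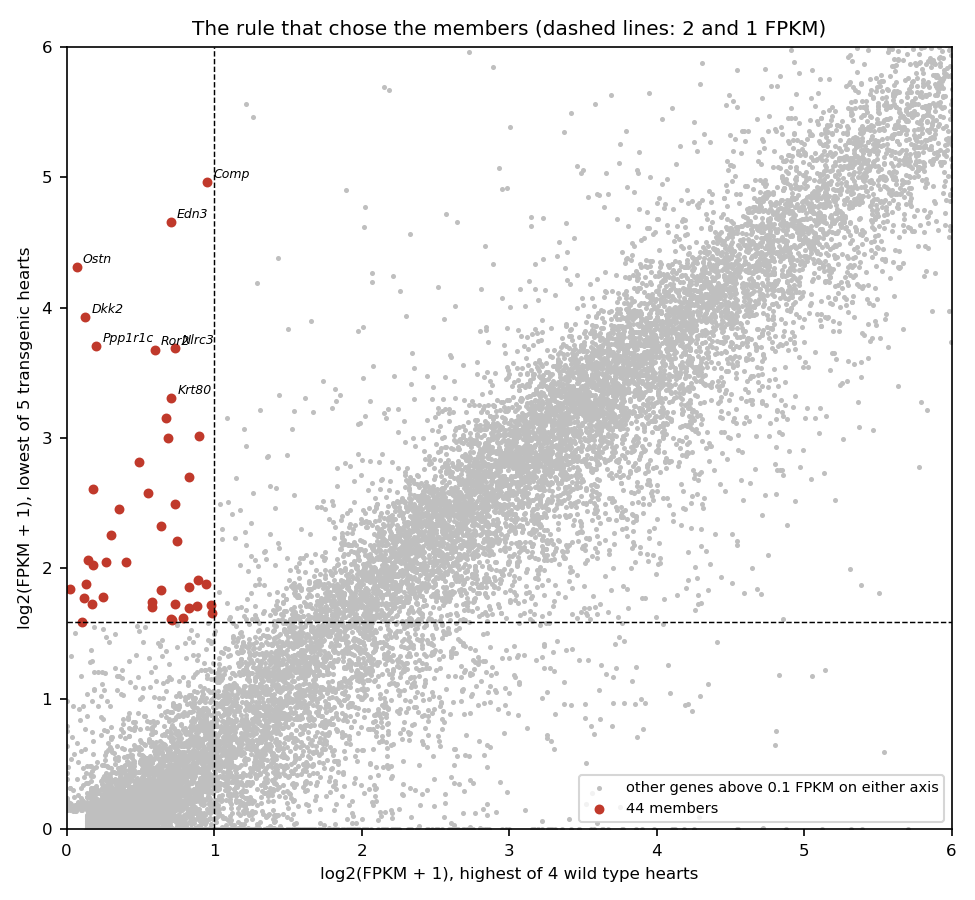
Each grey point is a listed gene and each coloured point one of the 44 genes, with the highest of the 4 wild type hearts on the x axis and the lowest of the 5 transgenic hearts on the y axis, both as log2(FPKM + 1). Dashed lines mark the thresholds of 1 and 2 FPKM. Comp has the highest mean level of the 44, at 30.2 FPKM or more in every transgenic heart.

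Values near the thresholds were as follows. The lowest transgenic heart was at 2.013 FPKM for Fhad1, 2.044 FPKM for Gm13054 and 2.059 FPKM for Sema3d. Just outside were Arhgef37 at 1.996 FPKM, Arntl at 1.959 FPKM and Nox4 at 1.942 FPKM. The highest wild type heart was at 0.977 FPKM for C7, 0.968 FPKM for Gm9791 and 0.936 FPKM for Comp. For each of these genes it was wild type heart 4. That heart also differed from the other wild type hearts in atrial markers. Myl7 was at 13.5 FPKM there and at 0.165 FPKM or less in the others, and Sln was at 7.98 FPKM against 0. Myl4 was also highest there among wild type hearts, whereas the atrial markers Stard10 and Bmp10 did not stand out. The part of atrial tissue in the values near the threshold was not tested. Just outside on that side were Ankdd1b at 1.049 FPKM, Gcnt1 at 1.056 FPKM and Star at 1.073 FPKM. With vehicle heart 3 left out, the rule would take 67 genes.

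Promoter sequence is shown for 4 of the genes because calcineurin acts through NFAT, often together with AP-1 (a dimer of Fos and Jun proteins). The sequences are the 250 bases before the RefSeq start on GRCm38.p6, 5′ to 3′ on the gene's strand, and capitals mark matches on either strand to the NFAT core TGGAAA or to AP-1 TGANTCA. Edn3 (chr2:174760369-174760618, plus strand) stands for the genes with no match among the 7 motifs searched, Ror2 (chr13:53286125-53286374, minus strand) has 1 AP-1 match at -90 to -84 from the start, Sprr1a (chr3:92485882-92486131, minus strand) has an NFAT core at -162 to -157 and AP-1 matches at -146 to -140 and -116 to -110, and C7 (chr15:5063774-5064023, minus strand) has NFAT cores at -225 to -220 and -143 to -138.
Edn3: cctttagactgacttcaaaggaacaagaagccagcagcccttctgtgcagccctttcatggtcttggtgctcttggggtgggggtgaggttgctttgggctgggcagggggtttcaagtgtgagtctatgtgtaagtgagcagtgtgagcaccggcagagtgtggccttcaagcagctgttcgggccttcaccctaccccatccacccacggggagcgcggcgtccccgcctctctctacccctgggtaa
Ror2: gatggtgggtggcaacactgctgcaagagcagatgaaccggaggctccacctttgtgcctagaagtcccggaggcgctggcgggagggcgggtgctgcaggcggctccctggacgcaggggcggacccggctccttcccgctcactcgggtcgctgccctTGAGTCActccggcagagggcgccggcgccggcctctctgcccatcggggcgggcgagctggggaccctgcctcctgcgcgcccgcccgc
Sprr1a: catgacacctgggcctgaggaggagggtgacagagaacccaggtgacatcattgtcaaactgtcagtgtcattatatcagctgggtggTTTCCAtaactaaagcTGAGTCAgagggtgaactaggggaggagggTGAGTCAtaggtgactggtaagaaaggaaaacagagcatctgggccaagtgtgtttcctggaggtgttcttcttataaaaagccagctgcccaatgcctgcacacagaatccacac
C7: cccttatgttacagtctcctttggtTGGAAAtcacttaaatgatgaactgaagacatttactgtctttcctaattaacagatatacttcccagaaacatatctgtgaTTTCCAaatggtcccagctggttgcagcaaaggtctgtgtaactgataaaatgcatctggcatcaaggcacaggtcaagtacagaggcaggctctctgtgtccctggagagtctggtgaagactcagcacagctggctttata

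Of the 44 genes, 28 had a RefSeq promoter window, taken from 250 bases before to 50 bases after the start, and some had more than 1 start. A window with the NFAT core TGGAAA was held by 8 of 28 (28.6%), against 23.9% of 27025 genes. AP-1 TGANTCA was found in 4 of 28 (14.3%), against 9.0% of all genes. The E-box CACGTG was found in 3 of 28 (10.7%), against 8.1%. The muscle motif MCAT, GGAATG, was found in 2 of 28 (7.1%), against 16.6%, and the GATA motif with the letters AGATAA in 1 of 28 (3.6%), against 12.7%. The MEF2 and serum response elements, each searched as 1 fixed 10-base form, were in 0 of 28 and in 0.1% of all genes. No motif contains another. A match is a run of letters and not a binding site, and the shares were not tested.

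The deposited files give no read totals. Relative depth was read from the steps between low values, as a multiple of wild type heart 1. It was 1.51 and 1.35 in JIB-04 hearts and 1.26, 1.46 and 1.27 in transgenic vehicle hearts. Wild type hearts were at 1.0, 1.16, 1.17 and 1.22. Every transgenic heart was thus deeper than every wild type heart by this estimate, and the part of depth in the set was not tested. Cardiomyocyte markers were present in every heart, with 8 of 8 at 1 FPKM or more in all 9. They summed to 15500 to 17300 FPKM in JIB-04, 15400 to 18100 FPKM in transgenic vehicle and 19900 to 23700 FPKM in wild type hearts. In vehicle heart 3, Myh6, the α-myosin heavy chain gene, was at 705 FPKM, against 2220 and 2070 FPKM in vehicle hearts 1 and 2. Tnnt2 went the other way there, at 3900 FPKM against 3400 and 3060 FPKM. The mitochondrial share of summed FPKM was 30.9% in JIB-04 heart 2, 29.8% in vehicle heart 3 and 26.3% or less in the others. Ppp3ca, the catalytic subunit that the transgene derives from, was at 1536 and 1434 FPKM in JIB-04 hearts, 1762, 1706 and 199 FPKM in transgenic vehicle hearts and 22.9, 23.4, 24.1 and 24.8 FPKM in wild type hearts. Vehicle heart 3 stood apart from the other 4 transgenic hearts in Ppp3ca.

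Secreted signals were among the members of highest level. Edn3 (endothelin-3, a ligand of endothelin receptors that guides neural crest cells; chr2:174760619-174784042, plus strand) was at 27.4 and 27.3 FPKM in JIB-04 hearts, 31.9, 24.2 and 34.6 FPKM in transgenic vehicle hearts and 0.538, 0.63, 0.197 and 0.277 FPKM in wild type hearts. All 5 transgenic hearts lay within 24.2 to 34.6 FPKM and the wild type hearts stayed at 0.63 FPKM or below. Ostn (osteocrin or musclin, a peptide of bone and muscle that binds the natriuretic clearance receptor; chr16:27307489-27351212, plus strand) was at 34.5 and 22.2 FPKM in JIB-04 hearts, 33.7, 28.6 and 18.8 FPKM in transgenic vehicle hearts and 0, 0.048, 0 and 0.001 FPKM in wild type hearts. Wild type hearts were at or next to 0, and vehicle heart 3 was the lowest transgenic heart. Its receptor gene Npr3, which also clears natriuretic peptides and is no member of the set, was at 46.6 and 52.2 FPKM in JIB-04 hearts, 38.0, 49.2 and 23.5 FPKM in transgenic vehicle hearts and 3.04, 2.16, 2.45 and 2.07 FPKM in wild type hearts. Npr3 was higher in transgenic vehicle than in wild type hearts by 3.43 on the log2(FPKM + 1) scale (SE 0.23, limma adjusted p = 3.29e-05), whereas the endothelin receptor Ednrb had means of 4.59 FPKM in JIB-04, 4.81 FPKM in transgenic vehicle and 4.21 FPKM in wild type hearts (difference of vehicle hearts 0.13, limma adjusted p = 0.479).

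Dkk2 (a secreted modulator of Wnt signalling that binds the co-receptors LRP5 and LRP6; chr3:132085292-132180293, plus strand) was at 28.3 and 16.2 FPKM in JIB-04 hearts, 35.6, 14.2 and 33.3 FPKM in transgenic vehicle hearts and 0, 0, 0.048 and 0.093 FPKM in wild type hearts. The transgenic hearts fell into a higher and a lower range that did not follow treatment, since JIB-04 heart 2 and vehicle heart 2, both of day 158, were the low ones and vehicle heart 3, also of day 158, was high. Fst (follistatin, which binds and blocks activins; chr13:114452262-114458730, minus strand) was at 7.02 and 4.14 FPKM in JIB-04 hearts, 5.56, 5.12 and 2.44 FPKM in transgenic vehicle hearts and 0.094, 0.189, 0.106 and 0.179 FPKM in wild type hearts. Vehicle heart 3 was the lowest for Fst and JIB-04 heart 1 the highest. Sema3d, an axon guidance signal, was the lowest of the 44 by mean level, at 2.24 and 3.12 FPKM in JIB-04 hearts, 2.09, 2.37 and 2.06 FPKM in transgenic vehicle hearts and 0.418, 0.483, 0.631 and 0.456 FPKM in wild type hearts.

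Partners of these signals gave mixed values, given as means of 2 JIB-04, 3 transgenic vehicle and 4 wild type hearts. Kremen1, a receptor of Dkk proteins, averaged 71.8 FPKM in JIB-04, 68.6 FPKM in transgenic vehicle and 33.2 FPKM in wild type hearts (difference of vehicle hearts 0.99, limma adjusted p = 0.000572). Lrp5 and Lrp6 differed between transgenic vehicle and wild type hearts by -0.05 and -0.0 (limma adjusted p = 0.611 and 0.992). The activin subunit Inhba averaged 3.68 FPKM in JIB-04, 1.68 FPKM in transgenic vehicle and 0.175 FPKM in wild type hearts (difference of vehicle hearts 1.15, limma adjusted p = 0.00174). Inhbb averaged 1.74 FPKM in JIB-04, 2.52 FPKM in transgenic vehicle and 0.385 FPKM in wild type hearts (difference of vehicle hearts 1.31, limma adjusted p = 0.00111). Nrp1, a receptor of class 3 semaphorins such as Sema3d, was lower, at 19.9 FPKM in JIB-04, 17.1 FPKM in transgenic vehicle and 39.4 FPKM in wild type hearts (difference of vehicle hearts -1.17, limma adjusted p = 0.000298). Kremen1 was thus higher, Nrp1 was lower, and Ednrb, Lrp5 and Lrp6 did not pass the test. The activin subunits were also called higher, but Inhba and Inhbb stayed at or below 0.296 and 0.538 FPKM in wild type hearts. They passed the expression filter only through transgenic hearts, so the call gives no independent support for their direction.

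Matrix proteins made up 4 of the 44. Comp (cartilage oligomeric matrix protein, a pentameric organizer of collagen fibrils in cartilage and tendon; chr8:70373548-70382065, plus strand) had the highest mean level of the set and was at 56.5 and 58.1 FPKM in JIB-04 hearts, 35.4, 30.2 and 53.6 FPKM in transgenic vehicle hearts and 0.856, 0.831, 0.833 and 0.936 FPKM in wild type hearts. Wild type hearts were all close to the threshold of 1 FPKM, and both JIB-04 hearts were above all transgenic vehicle hearts. Ltbp2 (a microfibril protein of elastic tissue; chr12:84783212-84876532, minus strand) was at 5.21 and 13.0 FPKM in JIB-04 hearts, 5.89, 6.19 and 4.63 FPKM in transgenic vehicle hearts and 0.657, 0.195, 0.663 and 0.298 FPKM in wild type hearts. The other 4 transgenic hearts lay close together below JIB-04 heart 2. Thbs1, thrombospondin 1, a matrix glycoprotein that can activate latent TGF-β, spanned 2.76 to 6.31 FPKM in transgenic hearts and reached 0.854 FPKM in wild type hearts. Lox (lysyl oxidase, which cross-links collagen and elastin, on chromosome 18) was at 2.72 and 4.59 FPKM in JIB-04 hearts, 2.30, 2.72 and 9.59 FPKM in transgenic vehicle hearts and 0.601, 0.426, 0.661 and 0.414 FPKM in wild type hearts. Vehicle heart 3 was far above the rest for Lox, with the widest ratio of highest to lowest transgenic heart in the set, 4.16.

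The plasma proteins Rbp4, the carrier of retinol made mainly in liver, and C7, a component of the complement membrane attack complex, were also members. Rbp4 was at 3.30 and 3.14 FPKM in JIB-04 hearts, 4.78, 3.21 and 8.26 FPKM in transgenic vehicle hearts and 0.296, 0.254, 0.164 and 0.32 FPKM in wild type hearts, with vehicle heart 3 the highest. C7 was low throughout, at 2.55 and 3.66 FPKM in JIB-04 hearts, 2.40, 2.15 and 3.21 FPKM in transgenic vehicle hearts and 0.513, 0.44, 0.805 and 0.977 FPKM in wild type hearts. C6, which joins the same complex, averaged 0.107 FPKM in JIB-04, 0.13 FPKM in transgenic vehicle and 0.0562 FPKM in wild type hearts, and Stra6, a receptor of Rbp4, averaged 0.153 FPKM in JIB-04, 0.0387 FPKM in transgenic vehicle and 0.0571 FPKM in wild type hearts. Both partner genes were below 1 FPKM and were not tested.

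Membrane proteins made up 6 of the 44. Ror2 (a receptor tyrosine kinase for Wnt5a, known for skeletal patterning; chr13:53109312-53286124, minus strand) was at 18.5 and 17.2 FPKM in JIB-04 hearts, 18.2, 19.1 and 11.8 FPKM in transgenic vehicle hearts and 0.281, 0.308, 0.514 and 0.284 FPKM in wild type hearts. Vehicle heart 3 was the lowest and the other 4 transgenic hearts lay within 17.2 to 19.1 FPKM. Its ligand gene Wnt5a averaged 2.14 FPKM in JIB-04, 2.16 FPKM in transgenic vehicle and 2.94 FPKM in wild type hearts (difference of vehicle hearts -0.35, limma adjusted p = 0.0884). Fzd9 (a Frizzled Wnt receptor; chr5:135248938-135251230, minus strand) was at 10.1 and 7.07 FPKM in JIB-04 hearts, 11.7, 10.2 and 9.45 FPKM in transgenic vehicle hearts and 0.608, 0.83, 0.545 and 0.86 FPKM in wild type hearts. Shisa3 (chr5:67607883-67623552, plus strand), which belongs to a family that keeps Frizzled and FGF receptors from the cell surface, was at 11.4 and 12.7 FPKM in JIB-04 hearts, 10.98, 11.02 and 7.88 FPKM in transgenic vehicle hearts and 0.592, 0.545, 0.238 and 0.347 FPKM in wild type hearts. The ranges of JIB-04 and transgenic vehicle hearts overlapped for Fzd9 and did not overlap for Shisa3.

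The other membrane proteins were Cdh22, a cadherin of brain, Gpnmb, a glycoprotein of macrophages and melanocytes, and Syndig1, a synapse protein that binds AMPA receptors. Cdh22 was at 4.00 and 5.64 FPKM in JIB-04 hearts, 6.14, 6.21 and 9.41 FPKM in transgenic vehicle hearts and 0.459, 0.557, 0.457 and 0.448 FPKM in wild type hearts. Gpnmb was at 4.495 and 6.03 FPKM in JIB-04 hearts, 5.30, 5.64 and 9.05 FPKM in transgenic vehicle hearts and 0.278, 0.238, 0.11 and 0.245 FPKM in wild type hearts. Vehicle heart 3 was the highest for both of them. Syndig1 was at 6.83 and 7.03 FPKM in JIB-04 hearts, 6.26, 6.36 and 2.69 FPKM in transgenic vehicle hearts and 0, 0.094, 0.093 and 0.03 FPKM in wild type hearts, and here vehicle heart 3 was the lowest transgenic heart.

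Proteins of signalling inside the cell numbered 6. Ppp1r1c (an inhibitor of protein phosphatase 1; chr2:79707780-79818496, plus strand) was at 33.5 and 18.3 FPKM in JIB-04 hearts, 29.0, 21.1 and 12.03 FPKM in transgenic vehicle hearts and 0.081, 0, 0.148 and 0.017 FPKM in wild type hearts. The 2 hearts of day 125 were the highest and the wild type hearts stayed below 0.2 FPKM. Nlrc3 (an NLR family protein known as a brake on innate immune signalling in lymphoid and myeloid cells; chr16:3945007-3976632, minus strand) was at 15.6 and 20.6 FPKM in JIB-04 hearts, 14.8, 18.5 and 11.9 FPKM in transgenic vehicle hearts and 0.562, 0.666, 0.458 and 0.554 FPKM in wild type hearts. Rnd1 (an atypical small GTPase that lowers actin stress fibres; chr15:98663421-98677461, minus strand) was at 7.79 and 8.34 FPKM in JIB-04 hearts, 5.52, 7.48 and 6.56 FPKM in transgenic vehicle hearts and 0.537, 0.648, 0.775 and 0.635 FPKM in wild type hearts. Both JIB-04 hearts were above all transgenic vehicle hearts for Rnd1 but by a small margin. Pex5l, which binds HCN pacemaker channels, Rgs11, which speeds the turning off of G protein signals, and Pik3r5, a regulatory subunit of PI3K gamma, each stayed between 2.25 and 5.74 FPKM in transgenic hearts. The channel gene Hcn2 averaged 2.64 FPKM in JIB-04, 2.74 FPKM in transgenic vehicle and 7.63 FPKM in wild type hearts (difference of vehicle hearts -1.23, limma adjusted p = 0.00478), whereas Hcn4 averaged 2.97 FPKM in JIB-04, 3.69 FPKM in transgenic vehicle and 1.81 FPKM in wild type hearts (0.74, adjusted p = 0.013). The catalytic partner of Pik3r5, Pik3cg, was below 1 FPKM and was not tested.

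Structural proteins numbered 4 and are best known from epithelium or slow muscle. Krt80 (a type II keratin of epithelia; chr15:101349571-101370125, minus strand) was at 8.90 and 17.2 FPKM in JIB-04 hearts, 10.6, 15.7 and 28.0 FPKM in transgenic vehicle hearts and 0.488, 0.495, 0.636 and 0.359 FPKM in wild type hearts. Vehicle heart 3 was the highest and JIB-04 heart 1 the lowest transgenic heart, and the 3 hearts of day 158 were above the 2 of day 125. Krt18, a type I keratin that pairs with Krt8, was at 3.03 and 4.81 FPKM in JIB-04 hearts, 3.24, 2.57 and 4.42 FPKM in transgenic vehicle hearts and 0.341, 0.558, 0.437 and 0.094 FPKM in wild type hearts. Krt8 itself averaged 0.525 FPKM in JIB-04, 0.341 FPKM in transgenic vehicle and 0.291 FPKM in wild type hearts and was not tested. Sprr1a (a small proline-rich protein of the cornified cell envelope, also known from stressed cardiomyocytes; chr3:92483952-92485895, minus strand) was at 6.22 and 12.3 FPKM in JIB-04 hearts, 6.63, 8.14 and 3.13 FPKM in transgenic vehicle hearts and 0, 0, 0.201 and 0.098 FPKM in wild type hearts. JIB-04 heart 2 was the highest and vehicle heart 3 the lowest for Sprr1a. Tnni1 (slow skeletal troponin I, the fetal isoform of the heart, on chromosome 1) was at 3.32 and 2.62 FPKM in JIB-04 hearts, 4.06, 3.69 and 5.01 FPKM in transgenic vehicle hearts and 0.035, 0.265, 0.287 and 0.78 FPKM in wild type hearts, with both JIB-04 hearts below all transgenic vehicle hearts. Tnni3, the adult isoform, averaged 1850 FPKM in JIB-04, 1920 FPKM in transgenic vehicle and 3090 FPKM in wild type hearts (difference of vehicle hearts -0.64, limma adjusted p = 0.000818), so Tnni1 remained far below it in level.

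Enzymes, an inhibitor and a lipid protein made up a further 4. Fam46b (now Tent5b, of the family of non-canonical poly(A) polymerases; chr4:133480132-133487938, plus strand) was at 9.04 and 12.2 FPKM in JIB-04 hearts, 11.5, 7.0 and 11.6 FPKM in transgenic vehicle hearts and 0.609, 0.194, 0.192 and 0.261 FPKM in wild type hearts. Mgat5b, a glycosyltransferase of brain, was at 4.07 and 6.51 FPKM in JIB-04 hearts, 3.08, 6.35 and 3.68 FPKM in transgenic vehicle hearts and 0.131, 0.098, 0.056 and 0.025 FPKM in wild type hearts, and Apol6, an apolipoprotein L family member, at 7.10 and 6.43 FPKM in JIB-04 hearts, 6.10, 6.24 and 5.10 FPKM in transgenic vehicle hearts and 0.133, 0.055, 0.082 and 0.068 FPKM in wild type hearts. Apol6 was 1 of the 4 members whose highest transgenic heart was under 1.5 times the lowest. Serpinb1c, a serpin protease inhibitor, stayed within 2.32 to 3.33 FPKM in transgenic hearts. The nuclear members were Hist1h4n (a histone H4 gene, now H4c18, whose close copies can share reads), the zinc finger gene Zscan18 and Mum1l1 (now Pwwp3b), with 2.07 to 5.47 FPKM in transgenic hearts. Wdr17 was at 3.78 and 2.58 FPKM in JIB-04 hearts, 6.11, 4.20 and 4.61 FPKM in transgenic vehicle hearts and 0.018, 0.013, 0.001 and 0.001 FPKM in wild type hearts, with vehicle heart 1 the highest. Fhad1, a forkhead-associated domain protein, was at 2.69 and 2.01 FPKM in JIB-04 hearts, 3.08, 3.21 and 4.56 FPKM in transgenic vehicle hearts and 0.017, 0.003, 0.001 and 0.075 FPKM in wild type hearts. Both JIB-04 hearts were below all transgenic vehicle hearts for Wdr17 and for Fhad1. Ankrd45 and Nrip3 completed the protein-coding members, at 2.28 to 5.70 FPKM in transgenic hearts.

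**Figure D2:**
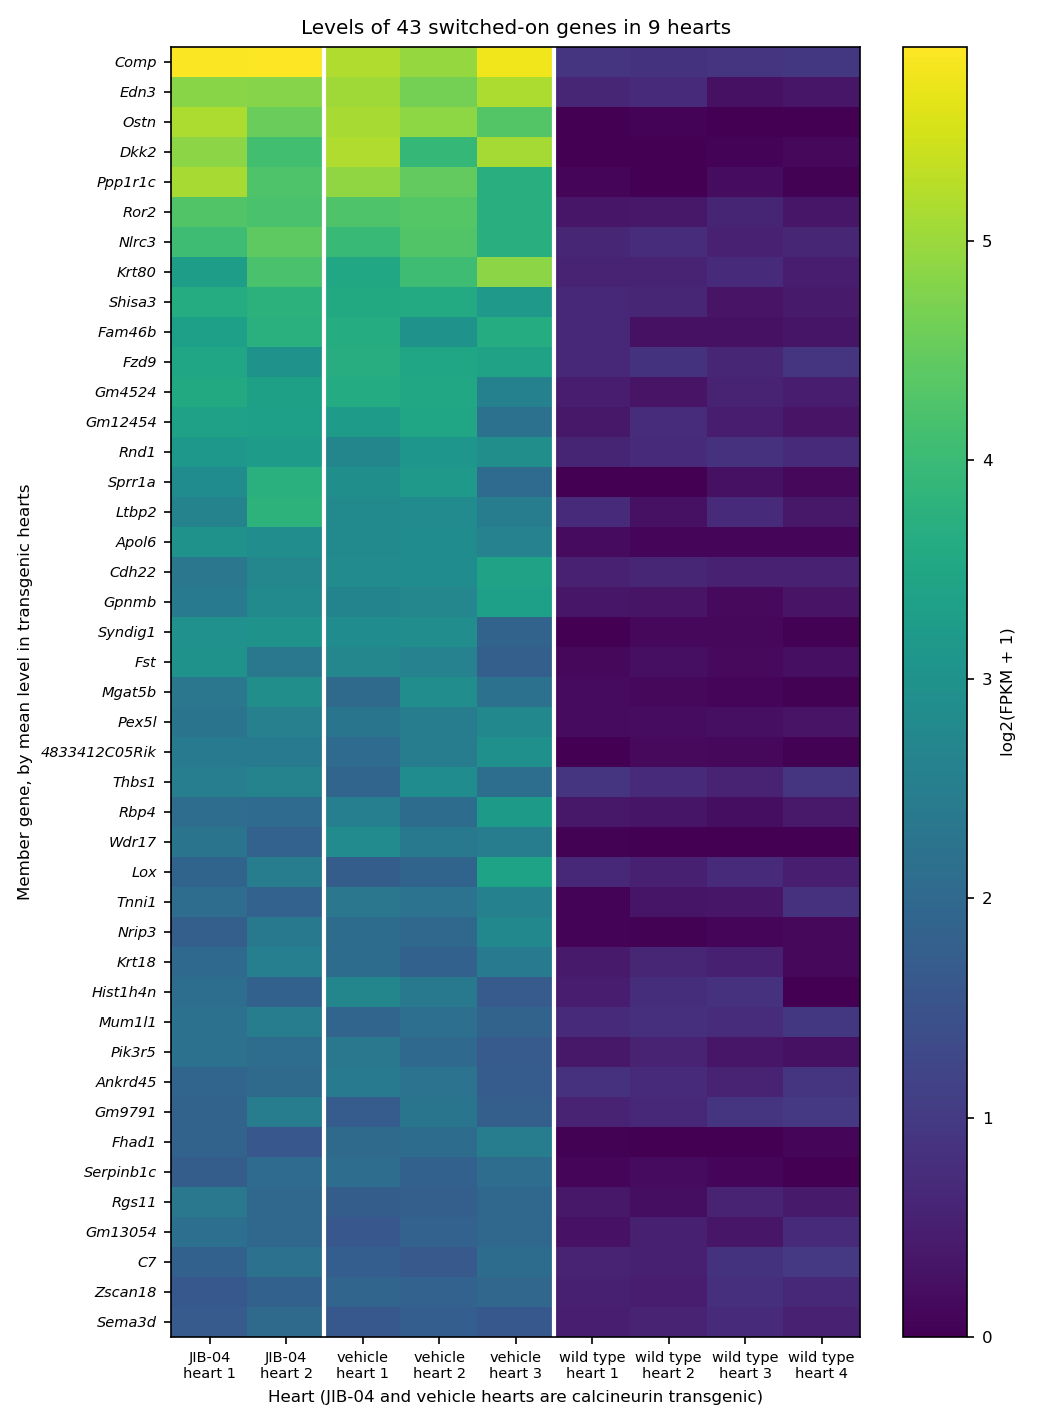
Heat map of log2(FPKM + 1) for 43 of the 44 genes (rows) in the 9 hearts (columns: JIB-04, transgenic vehicle, wild type). Dark cells are low values and bright cells high ones, so all wild type columns are dark. Vehicle heart 3 is darker than the other transgenic vehicle hearts for some genes (Syndig1, Gm12454) and brighter for others (Lox, Krt80).

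Of the 5 non-coding members, 3 are antisense to a gene that was itself higher in all transgenic hearts than in wild type hearts, and the libraries kept no strand, so reads from the shared positions cannot be told apart. Gm4524 (chr16:25956475-25960342, plus strand) was at 10.8 and 9.11 FPKM in JIB-04 hearts, 11.2, 10.4 and 4.98 FPKM in transgenic vehicle hearts and 0.387, 0.242, 0.469 and 0.378 FPKM in wild type hearts. It shares 1055 exonic bases with Leprel1 on the other strand, a prolyl hydroxylase of collagen, which was at 54.4 and 62.0 FPKM in JIB-04 hearts, 60.1, 66.6 and 46.2 FPKM in transgenic vehicle hearts and 1.22, 1.05, 1.23 and 1.32 FPKM in wild type hearts. Gm13054 (chr4:148001091-148004014, minus strand) was at 3.45 and 2.88 FPKM in JIB-04 hearts, 2.04, 2.60 and 2.99 FPKM in transgenic vehicle hearts and 0.223, 0.426, 0.28 and 0.639 FPKM in wild type hearts and shares 532 bases with Nppa, the atrial natriuretic peptide gene, at 2186 and 2326 FPKM in JIB-04 hearts, 1436, 1872 and 2360 FPKM in transgenic vehicle hearts and 287, 306, 279 and 324 FPKM in wild type hearts. Gm12454 (chr4:43504428-43508747, minus strand) was at 9.40 and 8.97 FPKM in JIB-04 hearts, 8.58, 10.2 and 3.63 FPKM in transgenic vehicle hearts and 0.298, 0.677, 0.388 and 0.239 FPKM in wild type hearts and shares 214 bases with Car9, a carbonic anhydrase, at 5.61 and 3.62 FPKM in JIB-04 hearts, 4.32, 5.31 and 1.78 FPKM in transgenic vehicle hearts and 0.07, 0.078, 0.206 and 0.143 FPKM in wild type hearts. The levels of these 3 RNAs are therefore uncertain. Gm12454 also lies 5963 bases from Tpm2, a tropomyosin gene with means of 671 FPKM in transgenic and 12.7 FPKM in wild type hearts. The other non-coding members were the intergenic 4833412C05Rik, at 4.30 and 4.44 FPKM in JIB-04 hearts, 3.19, 4.51 and 6.70 FPKM in transgenic vehicle hearts and 0.007, 0.104, 0.086 and 0.02 FPKM in wild type hearts, and the pseudogene Gm9791, at 2.68 and 4.63 FPKM in JIB-04 hearts, 2.29, 3.88 and 2.45 FPKM in transgenic vehicle hearts and 0.472, 0.603, 0.867 and 0.968 FPKM in wild type hearts.

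Among all 44 genes, 11 share exon positions with another listed gene. Of the coding ones, Rgs11 shares 138 bases with Arhgdig, a GDP dissociation inhibitor, which was at 3.42 and 3.24 FPKM in JIB-04 hearts, 3.40, 3.07 and 4.27 FPKM in transgenic vehicle hearts and 0.167, 0.473, 1.26 and 0.622 FPKM in wild type hearts, and part of the Rgs11 signal could belong to it. Apol6 shares 64 bases with Mb, myoglobin, and Mb was at 3377 and 2993 FPKM in JIB-04 hearts, 3533, 3215 and 3617 FPKM in transgenic vehicle hearts and 4453, 4257, 3627 and 3896 FPKM in wild type hearts. The part of reads from Mb in the Apol6 value was not tested.

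Spread between transgenic hearts was wide for the 44 genes, and the comparison with other genes was not tested. The ratio of the highest to the lowest transgenic heart had a median of 1.94, against 1.35 over 8723 genes at 2 FPKM or more in all 5 transgenic hearts and in the same range of mean level. It was under 1.5 in 4 of the 44 genes and 3 or more in Lox (4.16), Sprr1a (3.93) and Krt80 (3.15). Vehicle heart 3 was the lowest of the 5 transgenic hearts for 17 of the 44 (38.6%, against 31.6% of 12975 genes) and the highest for 13 (29.5%, against 28.9%). JIB-04 heart 2 was the highest for 15 (34.1%, against 14.1%) and the lowest for 5 (11.4%, against 27.7%). The median of the 44 was 4.4 and 5.4 FPKM in JIB-04 hearts, 5.49, 5.91 and 5.0 FPKM in transgenic vehicle hearts and 0.28 to 0.30 FPKM in wild type hearts, values that the rule itself used.

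Vehicle heart 3, the heart with low Ppp3ca, differed from vehicle hearts 1 and 2 in both directions. The rule required 2 FPKM or more in that heart and took 67 genes without it, so genes that were lower there could drop out, and the balance below is that of the genes left. Against the mean of vehicle hearts 1 and 2 on the log2(FPKM + 1) scale, 10 of the 44 (22.7%, against 9.3% of all genes) were lower by 0.5 or more and 9 (20.5%, against 6.8%) were higher by 0.5 or more, with a median of -0.03 for the 44 and for all genes. The lowest were Gm12454 (-1.16), Sprr1a (-1.01), Syndig1 (-0.99), Ppp1r1c (-0.98), Gm4524 (-0.98) and Fst (-0.88), and Ostn was at -0.69 and Ror2 at -0.62. The highest were Lox (1.59), Krt80 (1.06), Rbp4 (0.91), Nrip3 (0.71) and Comp (0.70). These are differences of a single heart and have no test. In the same heart the smooth muscle actin Acta2 was at 103 FPKM, against 534 and 486 FPKM in vehicle hearts 1 and 2. There the activated fibroblast list that contains it summed to 180 FPKM, against 608 and 572 FPKM, and the summed fibroblast markers were 1400 FPKM, against 1020 and 1060 FPKM. Fibroblast markers went both ways, with Dcn at 567 FPKM, against 319 and 319 FPKM, and Gsn at 757 FPKM, against 532 and 553 FPKM, but Col1a1 at 9.67 FPKM, against 38.0 and 48.4 FPKM, Col1a2 at 19.5 FPKM, against 45.9 and 54.5 FPKM, and Lum at 21.1 FPKM, against 59.6 and 65.1 FPKM. The part of these differences in the pattern was not tested.

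**Figure D3:**
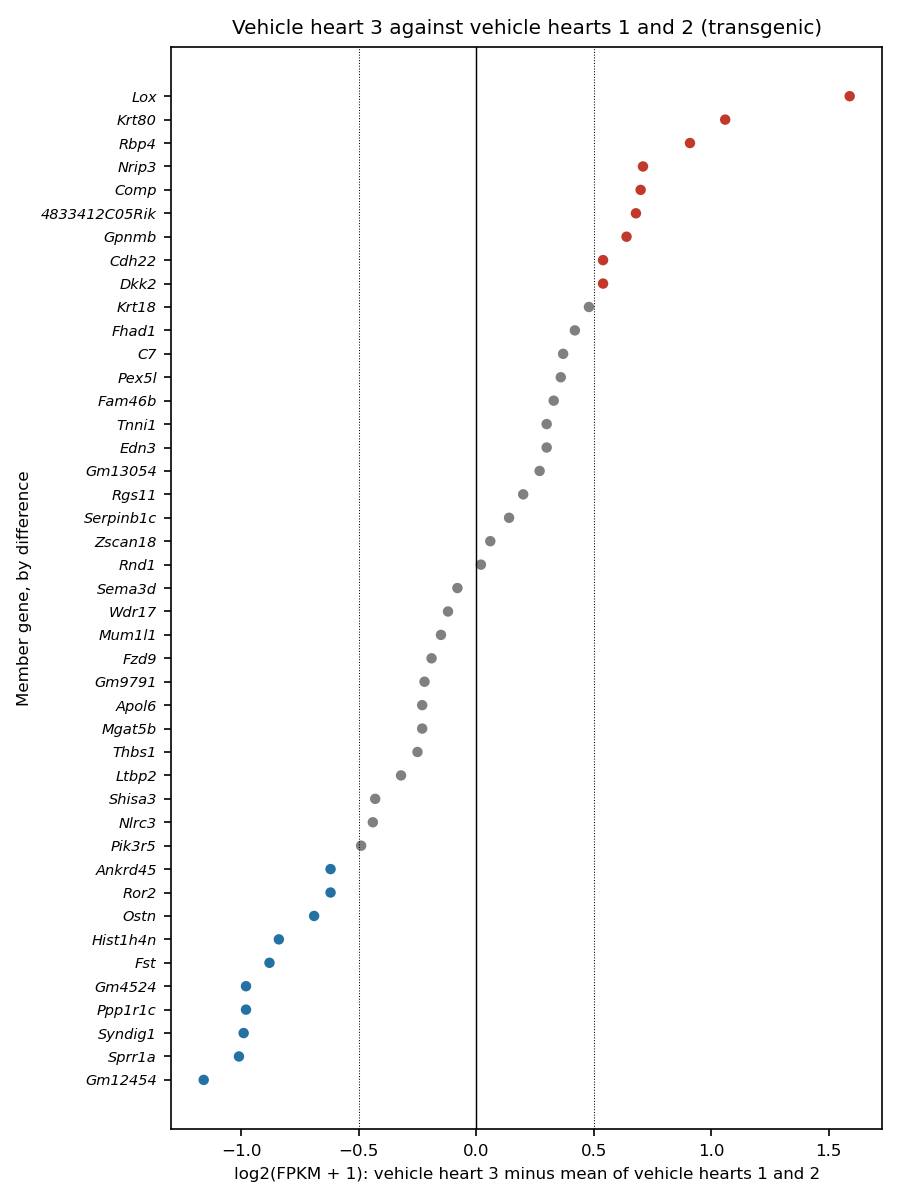
Difference of transgenic vehicle heart 3 from the mean of vehicle hearts 1 and 2 for 43 of the 44 genes, in log2(FPKM + 1). Blue points are lower by 0.5 or more (10 genes), red points higher by 0.5 or more (9 genes) and grey points lie between.

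JIB-04 was compared with vehicle in the 5 transgenic hearts, with day in the fit. Of the 44 genes, 0 were called by limma after Benjamini-Hochberg adjustment over 12975 genes, against 1 gene of all tested (0.00771%), and the lowest adjusted p among the 44 was 1.0. At an unadjusted p under 0.05 there were 4 (9.1%), against 220 genes (1.7%). Differences had a median of 0.13, against -0.01 over all genes, and 25 of 44 (56.8%) were above 0, against 47.3%. The 95% interval lay wholly within 1 log2 unit either way for 35 of the 44, so a difference of 1 either way was outside the interval for those genes. In simulated data of the same size, limma recovered 19.6% of genes changed by 1 and 0.4% of those changed by 0.5. Smaller differences were thus not detectable with 2 and 3 hearts. The simulated spread was that of all genes tested, whose 95% intervals reached 0.39 to either side in the median. Intervals of the 44 reached 0.55, and recovery at that spread was not simulated.

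Wdr17 had the largest negative difference, -0.58 (SE 0.12, interval -0.90 to -0.27, unadjusted p = 0.00477 and adjusted p = 1.0 by limma). For Wdr17 both JIB-04 hearts were below all 3 vehicle hearts, and leaving out any 1 heart gave -0.61 to -0.56. Mum1l1 (0.40, interval 0.02 to 0.78) and Fzd9 (-0.32, and -0.19 without JIB-04 heart 2) were also at an unadjusted p under 0.05. Comp differed by 0.58 (interval -0.08 to 1.24). Sprr1a (0.60, interval -0.50 to 1.71) and Ltbp2 (0.58, interval -0.23 to 1.40) had wide intervals, and without JIB-04 heart 2 their differences were -0.08 and -0.15. Without JIB-04 heart 1, or without vehicle heart 1, they were 1.11 and 1.14, and without vehicle heart 3 Sprr1a was at 0.23. Rbp4 had a difference of -0.52 (interval -1.41 to 0.37), which was -0.23 without vehicle heart 3 and -0.79 without vehicle heart 2. Fhad1 had -0.45 (interval -0.98 to 0.08), which was -0.15 without JIB-04 heart 2 and -0.68 without JIB-04 heart 1 or vehicle heart 1. Negative differences were also given by Cdh22 (-0.44, interval -0.93 to 0.05) and Tnni1 (-0.41, interval -0.86 to 0.03). Ostn (-0.02, interval -0.54 to 0.49) and Edn3 (-0.14, interval -0.61 to 0.33, and -0.27 to -0.02 with a vehicle heart left out) lay near 0, and Lox (-0.02, interval -1.19 to 1.14) had an interval that held both -1 and 1.

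Both JIB-04 hearts were above all 3 transgenic vehicle hearts in 8 of the 44 genes (18.2%, against 5.5% of all genes tested), among them Comp, Shisa3, Rnd1, Apol6, Syndig1, Mum1l1 and Rgs11. Both were below in 5 (11.4%, against 6.84%), namely Cdh22, Wdr17, Tnni1, Fhad1 and Zscan18. The genes named as above differ in role and include a matrix protein, a GTPase and a synapse protein. Neither group contains a gene that JIB-04 brought to the wild type range, since the rule itself requires 2 FPKM or more in JIB-04 hearts.

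The day of collection was compared with treatment in the fit. The days are those of the heart labels, whereas the series text speaks of dosing up to day 158 only. Of the 44 genes, 0 were called by limma, against 3 of 12975 (0.0231%), with a lowest adjusted p of 0.737 among the 44. At an unadjusted p under 0.05 there were 5 (11.4%), against 855 genes (6.59%). Differences of day 158 minus day 125 ran from -0.83 to 0.91 with a median of 0.07, against -0.02 over all genes, and 25 of 44 (56.8%) were above 0, against 45.2%. Krt80 was highest at 0.91 (SE 0.25, interval 0.26 to 1.56, unadjusted p = 0.0152 and adjusted p = 0.737 by limma), and without vehicle heart 3 the difference was 0.71. Ppp1r1c was lowest at -0.83 (SE 0.25, interval -1.46 to -0.20, unadjusted p = 0.0189 and adjusted p = 0.737 by limma), and without vehicle heart 3 it was -0.64. Ostn (-0.56, interval -1.08 to -0.04), Wdr17 (-0.40, interval -0.72 to -0.09) and Fzd9 (-0.33, interval -0.65 to -0.01) were the others.

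All 3 hearts of day 158 were above both of day 125 in 5 of the 44 (11.4%, against 13.0% of all genes), namely Krt80, Gpnmb, Pex5l, 4833412C05Rik and Lox. All 3 were below both in 5 (11.4%, against 16.9%), namely Ostn, Ppp1r1c, Gm4524, Fst and Pik3r5. These shares were near or below those of all genes. Lox had a difference of 0.78 (interval -0.38 to 1.95), which was 0.38 without vehicle heart 3, and Dkk2 of -0.72 (interval -1.63 to 0.19), which was -0.43 without vehicle heart 2 and -1.02 without vehicle heart 3. Fst gave -0.57 (interval -1.25 to 0.11) and -0.37 without vehicle heart 3, Mgat5b 0.54 (interval -0.02 to 1.11) and Gm9791 0.44 (interval -0.07 to 0.96). An interaction of JIB-04 with day was called for 0 of the 44 genes and for 0 genes overall (lowest adjusted p 1.0 by limma), with 1 JIB-04 heart on each day.

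**Figure D4:**
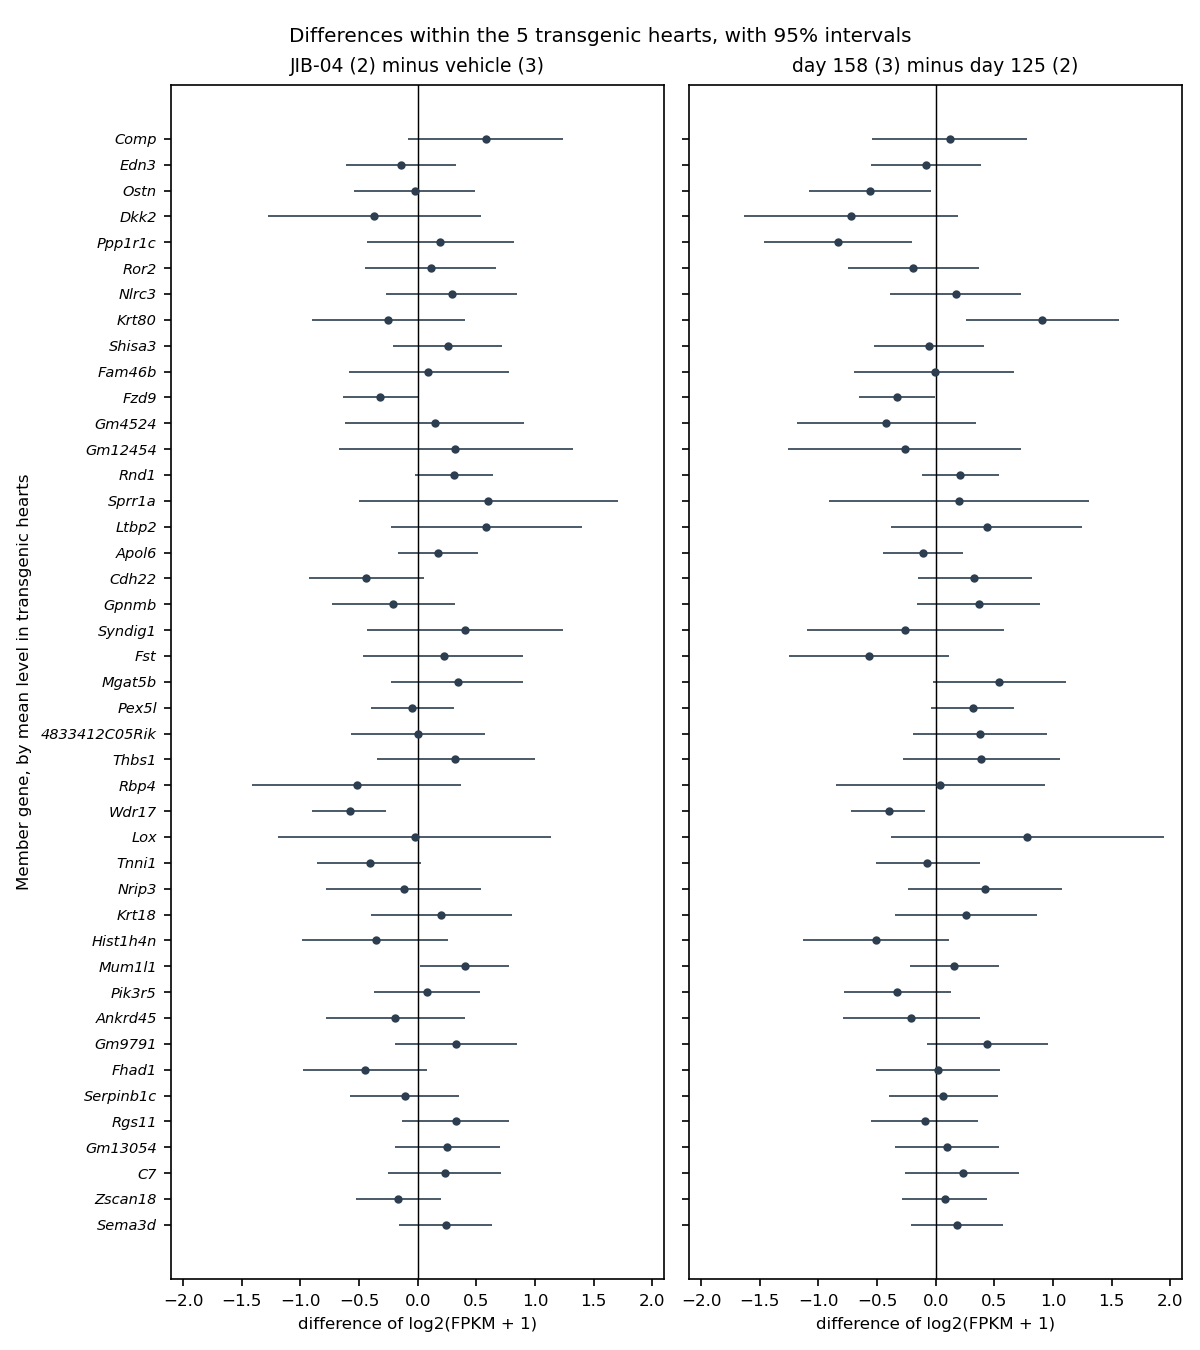
Differences for 43 of the 44 genes in log2(FPKM + 1), JIB-04 minus vehicle in the left panel and day 158 minus day 125 in the right panel, with 95% intervals from the limma fit on 5 transgenic hearts. Drawn differences span -0.58 to 0.60 for JIB-04 and -0.83 to 0.91 for day, and 0 genes passed the adjusted threshold in either panel.

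The usual tissues of the members were varied. By textbook knowledge 8 of the 44 are best known from the nervous system (Sema3d, Fzd9, Cdh22, Syndig1, Rnd1, Rgs11, Pex5l and Mgat5b). Another 3 are best known from epithelium (Krt80, Krt18 and Sprr1a) and 2 from blood plasma (Rbp4 and C7). Bone and skeletal muscle have 2 (Ostn and Tnni1) and cartilage and tendon 1 (Comp), and for 21 no tissue was assigned. Marker lists were measured for neuronal cells, epithelium, cartilage and skeletal muscle. The neuronal genes Snap25 and Elavl4, the epithelial genes Epcam, Cdh1 and Krt8, the cartilage genes Acan, Col2a1, Matn1 and Col9a1 and the skeletal muscle genes Myh1, Myh2, Myh4 and Actn3 were each below 1 FPKM in all 9 hearts. Sox9, a cartilage regulator also found in fibroblasts, was at 3.07 and 2.68 FPKM in JIB-04 hearts, 2.25, 3.29 and 1.34 FPKM in transgenic vehicle hearts and 0.449 to 0.951 FPKM in wild type hearts. Over the whole lists, neuronal and Schwann markers (3 of the 5 listed below 1 FPKM in all hearts) summed to 3.44 to 6.94 FPKM in JIB-04, 3.34 to 3.74 FPKM in transgenic vehicle and 4.76 to 5.31 FPKM in wild type hearts. Cartilage markers (4 of 5 below 1 FPKM) summed to 3.27 to 3.33 FPKM in JIB-04, 1.73 to 3.82 FPKM in transgenic vehicle and under 1 FPKM in each wild type heart, most of it Sox9 in transgenic hearts, with Matn1 at 0.152 to 0.584 FPKM there. Epithelial markers (3 of 4 below 1 FPKM, the other being the member Krt18) summed to 3.92 to 5.16 FPKM in JIB-04, 2.89 to 4.81 FPKM in transgenic vehicle and 0.163 to 1.51 FPKM in wild type hearts. Skeletal muscle markers (4 of 8 below 1 FPKM) summed to 94.3 to 112 FPKM in JIB-04, 49.7 to 129 FPKM in transgenic vehicle and 33.7 to 53.9 FPKM in wild type hearts, most of it Myl1, a myosin light chain also made in fetal heart.

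Summed markers of other heart cells differed between transgenic and wild type hearts for some cell types and overlapped for macrophages. Summed fibroblast markers (7 of 7 at 1 FPKM or more in all hearts) were 1120 to 1220 FPKM in JIB-04, 1020 to 1400 FPKM in transgenic vehicle and 600 to 765 FPKM in wild type hearts. Activated fibroblast markers, a list that contains Comp, summed to 551 to 557 FPKM in JIB-04, 180 to 608 FPKM in transgenic vehicle and 33.9 to 65.0 FPKM in wild type hearts, while Cthrc1 stayed below 1 FPKM. Most of that sum was Acta2, which smooth muscle also expresses, and Fap of the same list was lower in transgenic hearts, at 0.717 and 0.952 FPKM in JIB-04, 0.751 to 0.924 FPKM in transgenic vehicle and 1.53 to 2.81 FPKM in wild type hearts. Endothelial markers summed to 385 to 435 FPKM in JIB-04, 405 to 503 FPKM in transgenic vehicle and 619 to 738 FPKM in wild type hearts. Pericyte markers summed to 124 to 133 FPKM in JIB-04, 130 to 163 FPKM in transgenic vehicle and 224 to 263 FPKM in wild type hearts. Macrophage markers gave 88.9 to 111 FPKM in JIB-04, 93.0 to 126 FPKM in transgenic vehicle and 93.5 to 126 FPKM in wild type hearts. In whole hearts, more or fewer cells of a type and more or less RNA per cell cannot be told apart. The part of these shifts in the levels of the 44 genes was not tested.

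Pathway lists placed 7 of the 44 genes and left 37 in none. Between transgenic vehicle and wild type hearts limma called 20.3% of 13487 genes higher and 15.7% lower, with a median difference of 0.05. In the list of fetal and hypertrophy genes, which contains Tnni1, 15 of 20 tested were higher and 1 lower (median 1.61). In secreted Wnt, BMP and TGF factors, with Dkk2, Fst and Ltbp2, 17 of 21 were higher and 0 lower (median 1.15). In cartilage, tendon and bone matrix, with Comp, 12 of 13 were higher and 0 lower (median 1.47). Only the tested genes passed the expression filter, out of 34 secreted factors and 28 matrix genes listed. Calcineurin and NFAT genes held no member, with 4 of 15 higher and 2 lower (median 0.09). The epithelial list, with Krt18 and Krt80, had 2 of 6 higher and 2 lower, and the skeletal muscle list, with Tnni1, 4 of 11 higher and 2 lower. The neuronal and immune lists held no member, with 2 of 6 and 0 of 11 higher and 1 lower in each. In every list 0 genes were called for JIB-04 and for day. The members in these lists were chosen on this contrast, and the lists were made with earlier results of these data known. A gene near silent in wild type hearts, as every member is, passes the filter only through transgenic hearts. It can therefore add to the higher count but hardly to the lower one. The shares of genes called higher are thus no measure of enrichment, which was not tested.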

How the data were processed

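Messenger RNA of 9 hearts was sequenced. Trizol was used to extract the RNA, and the library kit was not strand-specific, per the labels' protocols. The tools named are Cufflinks 2.2.1, GATK 4.1.2, Picard and STAR 2.7.1a on GRCm38, per the submitters' processing notes, with no role for any of them. No annotation release is given in the sources. The authors deposited log2 FPKM for every gene, per the file headers. The added constant is not stated, and since the lowest value was exactly 0 and none was below 0, a constant of 1 was taken off after raising 2 to the value. Read totals are unknown, so no counting interval is given.

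Gene positions, counted from 1, come from the files. All 44 genes were matched to GENCODE M21, and that release gave gene types and exon overlaps. Matching was by symbol and chromosome, and a symbol not found there was looked up through RefSeq synonyms at the same locus. Promoters came from RefSeq (GRCm38.p6).

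JIB-04 and day differences were fitted together with limma 3.58.1 in R 4.3.3 (lmFit, eBayes with an intensity trend) on log2(FPKM + 1) over the 5 transgenic hearts, in genes at 1 FPKM or more in at least 2 of them (12975). Wild type hearts were left out because their values near 0 would lower the estimated spread. Tests were two-sided with Benjamini-Hochberg adjustment over all genes and a threshold of 0.05. All 44 genes passed the filter through the rule itself. The comparison of transgenic vehicle with wild type hearts (9 hearts, with group and day as terms, 13487 genes) served for background shares, partners and lists. The labels give separate mice but nothing of litters or housing, so p-values measure the spread between these hearts. The fit was tested on simulated data. Differences on this scale understate changes of low genes.

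The 44 genes, the lists and the tests were chosen with earlier results of these data known, and roles were assigned after the symbols were seen. Values in every heart are given for the 15 genes of highest level, the 4 with the largest JIB-04 and day differences in each direction and those nearest the thresholds. 1 member named by this rule is not reported here, though counts include it. Other genes were given by range, or with values where a comparison turned on them. Alternatives were pseudocounts of 0.1 and 0.5, filters, 3 scalings, other fits, the replicate number as a block, other thresholds of the rule and leaving out each heart.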

Additional observations from a re-analysis of the deposited data

Results flagged for a closer look

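Among the 4 wild type hearts, 1 heart stood apart from the other 3 by Dixon's criterion in 3 of the 44 genes, and chance gives about 1 in 20 groups. Ostn was at 0.048 FPKM in wild type heart 2 and at 0 to 0.001 FPKM in the others. Ror2 was at 0.514 FPKM in wild type heart 3, and Cdh22 was at 0.557 FPKM in wild type heart 2. All 3 values are below the 1 FPKM of the rule.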

How the results depend on the processing

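Of the 44 genes, 0 were called for JIB-04 or day under the alternatives run, of which the filter of 5 FPKM tested 24 of them. Over all genes, JIB-04 called 1, and 0 without a filter, 2 at equal totals, 2 with no term for day and 0 to 3 with a heart left out. With the replicate number as a block it called 3 genes and 0 members (lowest adjusted p 0.551 among the members by limma). The numbers are shared by 2 pairs only, and within these pairs they coincide with day. Vehicle heart 3 stands alone in its block, so the block differences are those found without that heart. Day called 3 genes, and 0 without a filter, 7 at equal totals, 51 with all 9 hearts and a shared day term, 6 with a day term per genotype and 0 to 18 with a heart left out. Equal totals moved the median day difference of all genes to -0.127. The rule took 44 genes. It took 20 with wild type below 0.5 FPKM and 176 with wild type below 2 FPKM. With transgenic at 1 FPKM or more it took 162, and 14 at 5 FPKM or more. Leaving out a heart gave 45 to 67 (67 without vehicle heart 3). Scaling to equal totals gave 52 genes, with all 44 kept. Scaling by median of ratios gave 41 and lost 3 of the 44, and quantile normalization gave 39 and lost 5.

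Some named differences changed sign, and the cause was not tested. The filters and the variance settings leave a fitted difference as it is and say nothing of its stability. For JIB-04, Ostn was 0.00 under quantile normalization, 0.02 with all 9 hearts and a shared day term and 0.07 with no term for day. Under the block, Ror2 was -0.06, Gm4524 -0.11, Gm12454 -0.02 and Lox 0.38. Lox was 0.01 at a pseudocount of 0.1. For day, Fam46b was 0.02 under median of ratios and 0.01 under quantile normalization, and at equal totals Rbp4 was -0.06 and Fhad1 -0.08. With a heart left out, JIB-04 differences ran from -0.32 to 0.4 for Fam46b, -0.02 to 0.61 for Gm12454, -0.11 to 0.35 for Gm4524, -0.37 to 0.38 for Lox, -0.15 to 1.14 for Ltbp2, -0.16 to 0.13 for Ostn, -0.06 to 0.26 for Ror2 and -0.08 to 1.11 for Sprr1a. Day differences ran from -0.09 to 0.31 for Comp, -0.19 to 0.05 for Edn3, -0.32 to 0.4 for Fam46b, -0.29 to 0.25 for Fhad1, -0.56 to 0.08 for Gm12454, -0.2 to 0.32 for Gm13054, -0.12 to 1.17 for Ltbp2, -0.25 to 0.31 for Rbp4, -0.21 to 0.14 for Shisa3 and -0.31 to 0.88 for Sprr1a.

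With 2 JIB-04 hearts, 1 on each day, leaving 1 out ends the balance of day and treatment, and a lone heart is assumed to vary like the others. Unknown read totals leave counting error open for genes near 2 FPKM.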

Other observations

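The mirrored rule, at 2 FPKM or more in all 4 wild type hearts and below 1 FPKM in all 5 transgenic hearts, took 30 genes. The summed FPKM of the 44 genes was 404 and 403 in JIB-04 hearts, 390, 356 and 384 in transgenic vehicle hearts and 14.5 to 15.9 in wild type hearts. Rcan1, a calcineurin target gene that is no member of the set, was at 140 and 169 FPKM in JIB-04 hearts, 97.7, 140 and 72.8 FPKM in transgenic vehicle hearts and 25.6 to 29.4 FPKM in wild type hearts, with vehicle heart 3 the lowest transgenic heart, as for Ppp3ca.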
